A study of Mus musculus with 6 samples.

Results

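The slow fibre contractile genes are 9 genes whose products give slow muscle fibres their contraction, calcium handling and oxygen store: Myh7, Myh7b, Myl2, Myl3, Atp2a2, Casq2, Sln, Mb and Myoz2. They were chosen by symbol, and every region that the authors' table assigns to one of these symbols was taken, which gave 35 regions of the 202553 in the table and 9 of its 16587 named genes. The regions are places of H3K9me3, the histone mark of constitutive heterochromatin, profiled by CUT&Tag, a method that uses an antibody to bring a cutting enzyme to the mark and sequences the DNA released there. The tissue was frozen quadriceps femoris, a thigh muscle that in mice is mostly fast. Libraries came from 3 Prr14-KO mice (replicates 4, 5 and 7) and 3 Prr14-WT mice (replicates 3, 4 and 8), taking each library as 1 animal, which the labels do not state. The sources used here do not give the knockout allele, the strain, the age or the sex. The labelled tissue could not be checked against marker genes, because the assay reads a histone mark and no RNA.

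Slow fibres contract slowly and resist fatigue. They use a beta-type myosin motor, clear calcium with the SERCA2 pump and burn fuel with oxygen. MEF2 transcription factors, of which the series title names MEF2C, are known activators of slow fibre genes, and H3K9me3 is known as a mark of silenced chromatin. Prr14 encodes a lamina protein that holds heterochromatin at the nuclear edge through the protein HP1. The comparison asks whether the mark differs at these genes when Prr14 is lost.

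None of the 9 genes passed the test for a difference in H3K9me3 between Prr14-KO and Prr14-WT muscle, neither at a single region, nor in the sum of its regions, nor in the chromatin within 100 kb of its start. Myh7, which encodes the slow myosin motor, had the largest log2 fold change of the 9 sums in size, at 3.73 ± 0.114 CPM in Prr14-KO and 7.30 ± 1.05 CPM in Prr14-WT (SD, n = 3 each). CPM is the count scaled to a common library total, with TMM factors between libraries. Mb, which encodes myoglobin, differed the other way, at 28.1 ± 1.13 CPM in Prr14-KO and 21.5 ± 0.675 CPM in Prr14-WT (SD, n = 3 each). Both had an unadjusted edgeR p under 0.05 and an adjusted p of 1.00 over all 15265 gene sums tested.

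The libraries held between 4324444 and 4707466 counts in Prr14-KO and between 4636898 and 4756133 in Prr14-WT. The 35 regions took 0.0115%, 0.0121% and 0.0118% of the counts in Prr14-KO replicates 4, 5 and 7, and 0.0108%, 0.0119% and 0.0121% in Prr14-WT replicates 3, 4 and 8, so the groups overlapped. The region assigned to Prr14 itself held 14, 56 and 54 counts in Prr14-KO and 10, 18 and 10 in Prr14-WT. Its log2 fold change was 1.79 (SE 0.38, edgeR adjusted p = 0.0217), with Prr14-KO replicate 4 inside the Prr14-WT range. Which part of the gene was deleted is not stated, so these counts do not check the genotype.

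The genes had a median of 4 assigned regions each, as did all named genes of the table. Of the 35 regions, 23 (65.7%) were annotated as intergenic, against 68.1% of all regions, and 7 overlapped the RefSeq span of the gene they were assigned to. Another 11 overlapped only other genes and 17 overlapped none. The median distance to the assigned start site was 14.7 kb, against 86.8 kb over all regions, and the farthest region lay 42.2 kb away. Regions were narrow, with a median width of 214 bp against 317 bp over all regions. Per kb of region, the members held a median of 9.61 CPM and all regions 10.2 CPM, and 15 of the 35 lay above that overall median.

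**Figure D1:**
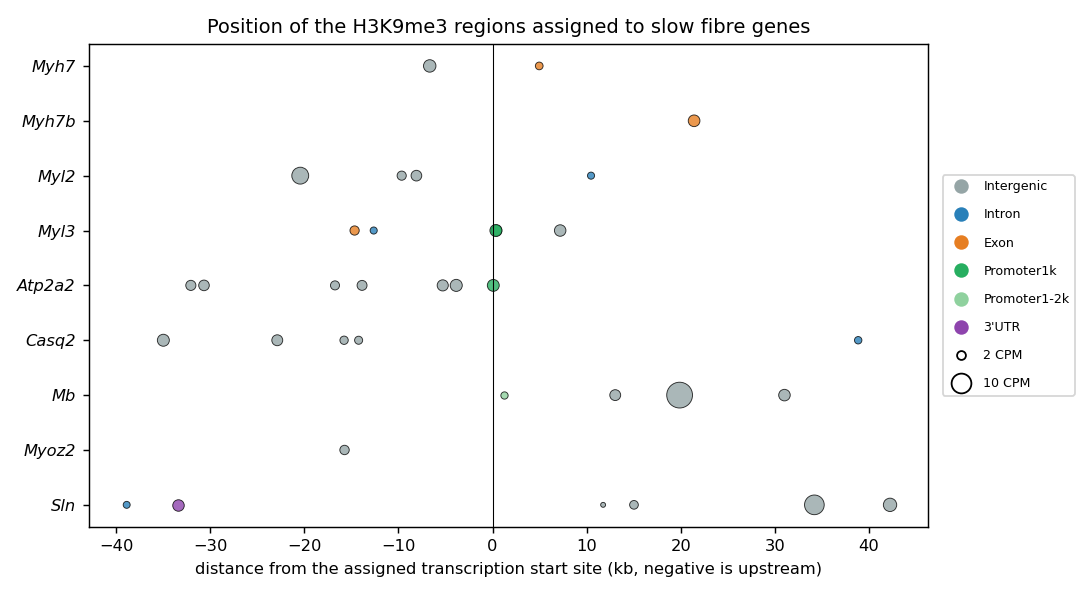
Each circle is a region assigned to 1 of the 9 genes (rows), placed by its distance in kb from the assigned start site, with its area showing the mean CPM of the 6 libraries and its colour the authors' annotation class. Most circles are grey (intergenic), the largest is the Mb region 19.9 kb from its start, and the 2 Promoter1k circles of Myl3 lie on top of each other at 0.4 kb.

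Inside the genes, 2 of the 9 held no region: Myoz2, whose product calsarcin-1 binds calcineurin at the Z-disc of slow and cardiac muscle, and Sln, whose product sarcolipin inhibits SERCA pumps. Among 21896 protein-coding genes, 44.9% held no region. Regions covered 5.88% of the Myl3 span, 2.67% of Atp2a2, 2.66% of Myh7, 1.57% of Myh7b, 1.03% of Myl2, 0.534% of Mb and 0.329% of Casq2. The median over protein-coding genes was 0.621% and the upper quartile 3.24%. Of the 9 genes, 5 lay above that median, and Myl3 alone lay above the upper quartile.

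Promoter windows of RefSeq (GRCm38.p6), from 250 bases before to 50 after a start site, matched 7 of the 9 genes with 11 windows. Atp2a2 and Sln had no window and were left out of the window counts and motif searches. A region does cover the Atp2a2 start, as given below. A region of the table overlapped 2 of the 11, against 11.8% of all 32851 windows, and both belong to Myl2, which encodes the regulatory light chain of slow and ventricular myosin. They are shown because no other member window overlapped a region, and capitals mark the bases inside the region at chr5:122092758-122092972. The authors class this region as intergenic, 8.1 kb from the start they assign. The table does not say whether positions count from 0 or 1, and the edge of the capitals may be off by a base.
Myl2 upstream window, chr5:122092474-122092773, plus strand: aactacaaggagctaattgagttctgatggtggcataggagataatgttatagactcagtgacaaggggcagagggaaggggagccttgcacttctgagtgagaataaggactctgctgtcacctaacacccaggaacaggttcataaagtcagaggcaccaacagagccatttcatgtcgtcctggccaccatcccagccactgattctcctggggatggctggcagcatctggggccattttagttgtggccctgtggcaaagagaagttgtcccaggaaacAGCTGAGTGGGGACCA
Myl2 downstream window, chr5:122092939-122093238, plus strand: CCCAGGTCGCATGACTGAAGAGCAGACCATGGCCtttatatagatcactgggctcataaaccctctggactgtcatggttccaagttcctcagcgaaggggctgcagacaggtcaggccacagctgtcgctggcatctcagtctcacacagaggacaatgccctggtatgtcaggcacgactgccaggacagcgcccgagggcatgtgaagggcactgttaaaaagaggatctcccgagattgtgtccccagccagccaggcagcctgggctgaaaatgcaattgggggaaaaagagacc

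Because the title of the series names MEF2C, the windows were searched for the MEF2 consensus, which reads the same on both strands, and for the E-box of myogenic factors, CANNTG. The MEF2 consensus was present in 2 of the 11 windows, those of Casq2 and Myoz2, and in 3.19% of all windows. The E-box was present in 11 of the 11 and in 72.3% of all windows. Each motif was searched on its own, and overlaps between them were allowed. The 2 windows with a MEF2 match are shown with the match in capitals, and neither held a region of the table. A match is a stretch of letters and no evidence of binding.
Casq2 window, chr3:102086165-102086464, plus strand: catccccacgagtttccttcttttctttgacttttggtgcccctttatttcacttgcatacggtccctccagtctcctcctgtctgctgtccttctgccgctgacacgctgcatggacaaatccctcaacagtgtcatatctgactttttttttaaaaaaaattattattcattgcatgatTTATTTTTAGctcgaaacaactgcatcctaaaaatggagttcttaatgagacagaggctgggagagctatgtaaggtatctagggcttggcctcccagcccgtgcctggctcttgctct
Myoz2 window, chr3:123034938-123035237, minus strand: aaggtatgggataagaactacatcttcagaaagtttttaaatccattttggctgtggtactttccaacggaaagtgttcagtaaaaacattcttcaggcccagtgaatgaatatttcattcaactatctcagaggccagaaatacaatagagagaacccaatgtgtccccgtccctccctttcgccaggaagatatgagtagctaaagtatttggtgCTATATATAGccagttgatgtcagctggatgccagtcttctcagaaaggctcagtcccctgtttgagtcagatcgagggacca

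Of the 35 regions, 22 had enough counts to be tested, in an edgeR quasi-likelihood fit over 153789 regions, and none passed an adjusted p of 0.05. Over all tested regions 0.013% passed. None of the 22 had an unadjusted p under 0.05 either, against 3.86% of all tested regions, and the smallest was 0.0516. Prr14-KO and Prr14-WT values did not overlap in 2 of the 22, both higher in Prr14-KO and both assigned to Mb, against 9.6% of all tested regions in either direction. At the stronger of these regions the separation rests on the TMM factors. The log2 fold changes of the 22, Prr14-KO over Prr14-WT, ran from -0.84 to 1.00. The median standard error was 0.51. The region at 1.00, a 2-fold change, had an edgeR adjusted p of 0.998. Changes of that size at a single region could thus be missed with these libraries. Whether fewer nuclei carry the mark or each carries less of it cannot be told apart in bulk muscle.

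Sums over all regions assigned to a gene were tested for 9 of 9 genes. None passed, against 0.0393% of all gene sums, and 2 had an unadjusted p under 0.05 (Myh7 lower and Mb higher in Prr14-KO), against 3.58% of all. The groups did not overlap for 3 of the 9 (Myh7 and Myl2 lower, Mb higher), against 8.5% of all gene sums. The median log2 fold change of the 9 was -0.11, with 3 above 0 and 6 below, beside a median of 0.00 over all 15265 sums.

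**Figure D2:**
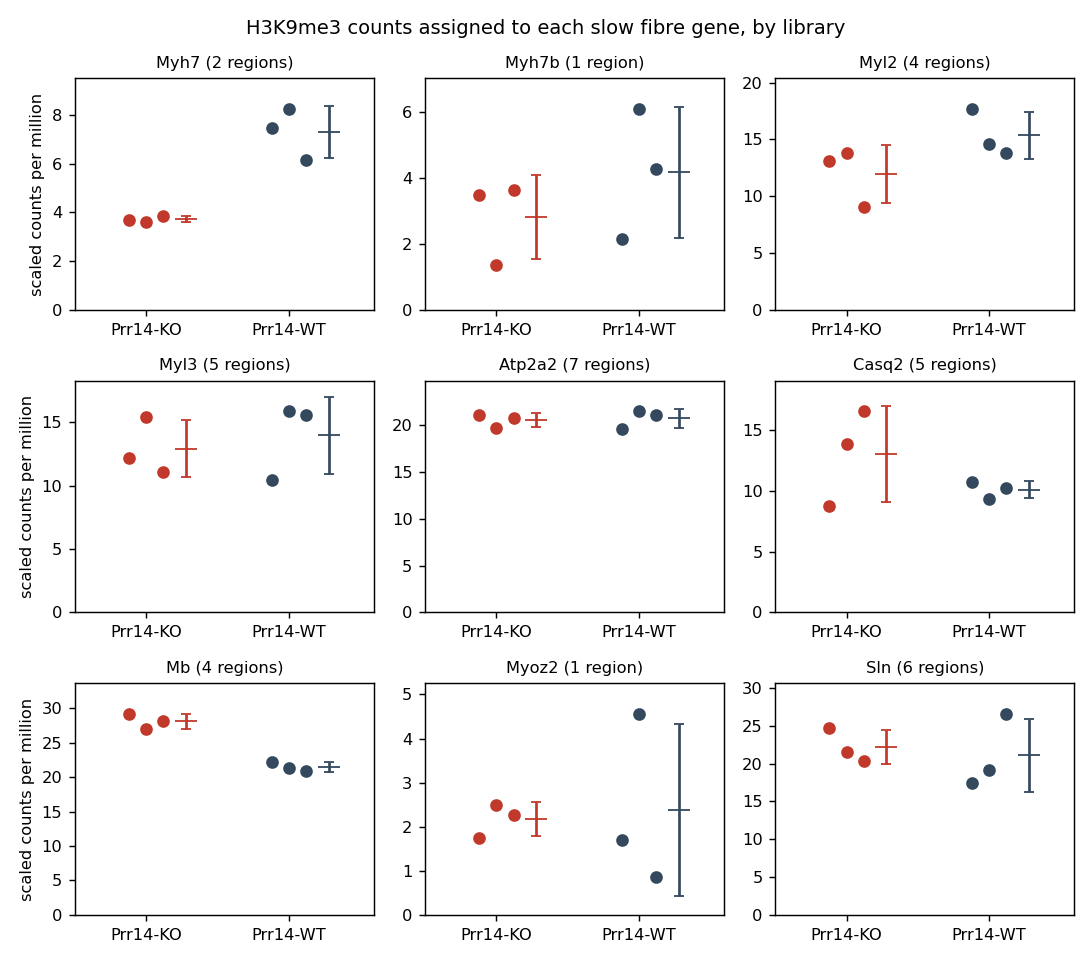
Points show the scaled CPM of the sum of regions assigned to each gene in each library, Prr14-KO left and Prr14-WT right, with the mean and SD of 3 libraries beside them. The groups are apart for Myh7, Myl2 and Mb and overlap for the other genes.

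The myosin motor and light chain genes come first. Myh7 was assigned 2 regions. The exonic region at chr14:54988651-54988805 held 2, 8 and 2 counts in Prr14-KO replicates 4, 5 and 7, and 9, 8 and 13 counts in Prr14-WT replicates 3, 4 and 8, too few to be tested. The intergenic region 6.7 kb upstream, at chr14:55001080-55001515 in the RefSeq gene model Gm31251, held 15, 8 and 15 counts in Prr14-KO and 26, 30 and 16 in Prr14-WT. At both, the Prr14-KO libraries lay mostly low, with 1 scaled value overlapping the other group. The log2 fold change of the upstream region was -0.84 (SE 0.47, edgeR adjusted p = 0.998). The sum held 17, 16 and 17 counts in Prr14-KO and 35, 38 and 29 in Prr14-WT, with no overlap. Its log2 fold change was -0.97 (95% interval from -1.84 to -0.09, edgeR unadjusted p = 0.0313, adjusted p = 1.00).

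The sum leaves out part of the gene. The span of Myh7 (chr14:54970684-54994626, minus strand) held 2 more regions, which the authors assign to the gene model Gm17428. The one at chr14:54975828-54976059 held 11, 1 and 16 counts in Prr14-KO and 23, 21 and 19 in Prr14-WT, with all Prr14-KO libraries below all Prr14-WT libraries (log2 fold change -1.08, SE 0.53, edgeR adjusted p = 0.998). The other, at chr14:54978569-54978822, held 22, 24 and 16 counts in Prr14-KO and 5, 14 and 24 in Prr14-WT (log2 fold change 0.60, SE 0.47, edgeR adjusted p = 0.998). Taking the 3 regions that overlap the span, whatever their symbol, gave 35, 33 and 34 counts in Prr14-KO and 37, 43 and 56 in Prr14-WT. The groups were still without overlap after TMM scaling, but by library totals alone Prr14-KO replicate 7 lies above Prr14-WT replicate 3. The log2 fold change was then -0.37 (SE 0.33, edgeR unadjusted p = 0.260). This sum, the Gm17428 regions and the wider locus were chosen after their values were seen. Next to Myh7 lies Myh6, the fast cardiac myosin gene, whose 2 regions had overlapping groups and log2 fold changes of -0.65 (SE 0.59) and 0.09 (SE 0.59).

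**Figure D3:**
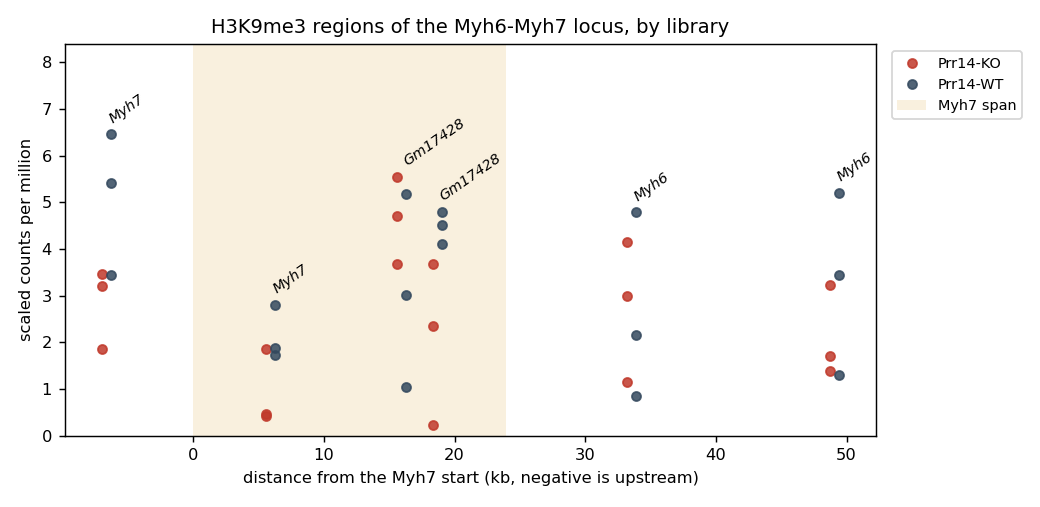
Scaled CPM of each library at the 6 regions of the Myh6 and Myh7 locus, by distance in kb from the Myh7 start, with Prr14-KO points drawn slightly to the left of Prr14-WT points and the assigned gene written above. Within the shaded Myh7 span the 3 regions differ in direction: Prr14-KO is below Prr14-WT at 18.68 kb and mostly above it at 15.93 kb.

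The region at chr14:54975828-54976059 lies 52 bp from the hairpin of Mir208b, a microRNA inside Myh7. Myh7b, a slow myosin gene whose own microRNA is Mir499, held its only region 9.5 kb from that hairpin. Both microRNAs are known in mice to favour slow myosin. Their mature forms are shown because each sits inside a member gene, with the seed (bases 2 to 8) in capitals, and the seeds open with the same letters, UAAGAC. Their RNA was not measured here.
mmu-miR-208b-3p: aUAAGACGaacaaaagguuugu
mmu-miR-499-5p: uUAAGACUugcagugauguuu

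Myh7b was assigned 1 region, in an exon 21.4 kb from the start at chr2:155632447-155632810. It held 16, 6 and 16 counts in Prr14-KO and 10, 28 and 20 in Prr14-WT, and the groups overlapped. The gene sum had a log2 fold change of -0.55 (95% interval from -1.71 to 0.60, edgeR adjusted p = 1.00). It was -0.17 without Prr14-WT replicate 4, -0.23 without Prr14-KO replicate 5 and -0.87 without Prr14-WT replicate 3.

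Myl2 was assigned 4 regions. The sum held 60, 61 and 40 counts in Prr14-KO and 83, 67 and 65 in Prr14-WT, or 11.99 ± 2.56 CPM in Prr14-KO and 15.4 ± 2.06 CPM in Prr14-WT (SD, n = 3 each). The Prr14-KO libraries were below the Prr14-WT libraries after scaling, by a narrow margin: 13.82 CPM in the highest Prr14-KO library and 13.84 CPM in the lowest Prr14-WT library. By library totals without TMM factors, these libraries change order and the groups overlap. The log2 fold change was -0.36 (edgeR adjusted p = 1.00), with a 95% interval that ran from -0.87 to 0.16, and it was -0.19 without Prr14-KO replicate 7. The region over the promoter windows shown above held 12, 8 and 9 counts in Prr14-KO and 27, 9 and 16 in Prr14-WT, and the groups overlapped (log2 fold change -0.75, SE 0.56, edgeR adjusted p = 0.998; -0.31 without Prr14-WT replicate 3). The strongest of the 4, an intergenic region 20.4 kb upstream, held 36, 29 and 19 counts in Prr14-KO and 37, 39 and 41 in Prr14-WT (log2 fold change -0.40, SE 0.32, and -0.20 without Prr14-KO replicate 7). The region 10.5 kb downstream of the start lies in Ccdc63, not in Myl2, and held 2, 14 and 4 counts in Prr14-KO and 9, 4 and 2 in Prr14-WT. The last, 9.7 kb upstream, held 10, 10 and 8 counts in Prr14-KO and 10, 15 and 6 in Prr14-WT. Both overlapped between groups and had too few counts to be tested.

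Myl3, which encodes the essential light chain of slow and ventricular myosin, was assigned 5 regions that overlapped Myl3 in 1 case. Of the others, 3 lie in Pth1r, the gene of the parathyroid hormone receptor, and 1 in no gene. The region inside Myl3, at chr9:110766341-110766701, held 4, 23 and 12 counts in Prr14-KO and 16, 26 and 21 in Prr14-WT (log2 fold change -0.60, SE 0.48). That value was -0.16 without Prr14-KO replicate 4, -1.31 without Prr14-KO replicate 5 (edgeR unadjusted p = 0.033) and -0.93 by limma-voom. The other region annotated within 1 kb of a Myl3 start, at chr9:110742195-110742371, held 25, 13 and 8 counts in Prr14-KO and 12, 10 and 10 in Prr14-WT (log2 fold change 0.58, SE 0.57), and its log2 fold change was 0.09 without Prr14-KO replicate 4. Both had overlapping groups and an edgeR adjusted p of 0.998. The remaining 3 regions held 0 to 24 counts per library with overlapping groups, and the log2 fold changes of the 2 tested were 0.08 (SE 0.69) and -0.52 (SE 0.51). The gene sum was 12.9 ± 2.24 CPM in Prr14-KO and 14.0 ± 3.04 CPM in Prr14-WT (SD, n = 3 each), a log2 fold change of -0.11 (95% interval from -0.63 to 0.41).

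Among the calcium handling genes, Atp2a2, which encodes the SERCA2 pump of slow and cardiac muscle, had the most regions, 7. Its start site was covered by a wide region at chr5:122501603-122502580, annotated within 1 kb of the start. That region held 13, 14 and 35 counts in Prr14-KO and 10, 10 and 16 in Prr14-WT, and Prr14-KO replicate 7 was the highest of the 6 libraries, while the groups overlapped. Its log2 fold change was 0.86 (SE 0.50, edgeR adjusted p = 0.998), and 0.23 without that library. Per kb it was among the weakest regions, at 3.71 CPM per kb and the 0.7th percentile of all regions. The 6 others were intergenic and upstream, from 3.9 to 32.1 kb from the start. At the one 13.9 kb upstream, which had too few counts to be tested, Prr14-KO held 8, 9 and 5 counts and Prr14-WT 10, 14 and 24, without overlap. The groups there were almost level at their edges, with 2.081 CPM in Prr14-KO replicate 5 and 2.082 CPM in Prr14-WT replicate 3. At the one 30.7 kb upstream, Prr14-KO held 29, 13 and 10 counts and Prr14-WT 13, 2 and 12 (log2 fold change 1.00, SE 0.57). This was the largest log2 fold change of the 22 tested regions, and it was 0.46 without Prr14-KO replicate 4 and 0.54 without Prr14-WT replicate 4. The other 4 upstream regions held 5 to 25 counts per library with overlapping groups, and the 3 of them tested had log2 fold changes of -0.26, -0.56 and 0.56. The differences pointed both ways, and the sum of the 7 was 20.6 ± 0.759 CPM in Prr14-KO and 20.7 ± 0.991 CPM in Prr14-WT (SD, n = 3 each). The log2 fold change of the sum was -0.01 (95% interval from -0.42 to 0.40, edgeR adjusted p = 1.00). That sum leaves out a region inside the Atp2a2 span, at chr5:122455173-122455852, which the authors assign to Anapc7. It held 7, 15 and 10 counts in Prr14-KO and 6, 17 and 25 in Prr14-WT, with overlap (log2 fold change -0.50, SE 0.56).

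Casq2, which encodes the calcium store protein calsequestrin of slow and cardiac muscle, was assigned 5 regions, 4 of them intergenic and upstream. Those 4 held 2 to 26 counts per library with overlapping groups, and the 2 tested had log2 fold changes of 0.32 (SE 0.49) and 0.47 (SE 0.55). The one in its intron held 4, 5 and 8 counts in Prr14-KO and 13, 1 and 8 in Prr14-WT. The sum held 40, 61 and 73 counts in Prr14-KO and 50, 43 and 48 in Prr14-WT, with Prr14-KO replicate 4 below every Prr14-WT library and the other Prr14-KO libraries above them. The log2 fold change was 0.37 (95% interval from -0.20 to 0.93, edgeR adjusted p = 1.00), with 0.16 without Prr14-KO replicate 7 and 0.58 without Prr14-KO replicate 4.

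Sln was assigned 6 regions, none of them in the gene, and 2 of them in Slc35f2. The strongest, 34.2 kb downstream of the start at chr9:53884052-53884667, held 51, 46 and 43 counts in Prr14-KO and 42, 37 and 52 in Prr14-WT. It stood at the 93.4th percentile of all regions by CPM and overlaps the RefSeq gene model Gm16380 (log2 fold change 0.17, SE 0.28, edgeR adjusted p = 0.998). The other 5 held 0 to 26 counts per library with overlapping groups, and the 2 tested had log2 fold changes of -0.32 (SE 0.51) and -0.13 (SE 0.43). The gene sum was 22.2 ± 2.20 CPM in Prr14-KO and 21.1 ± 4.86 CPM in Prr14-WT (SD, n = 3 each), a log2 fold change of 0.07 (95% interval from -0.33 to 0.48).

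Mb, the gene of the oxygen store myoglobin, held the strongest region of the 35. This region, at chr15:77001355-77002814, spans 1459 bp, lies 19.9 kb from the assigned start in no RefSeq gene, and stood at the 98.6th percentile of all regions by CPM. It held 89, 70 and 101 counts in Prr14-KO and 77, 63 and 64 in Prr14-WT. After scaling, all Prr14-KO libraries were above all Prr14-WT libraries, at 19.5 ± 3.57 CPM in Prr14-KO and 14.5 ± 1.36 CPM in Prr14-WT (SD, n = 3 each; log2 fold change 0.43, SE 0.22, edgeR unadjusted p = 0.0516, adjusted p = 0.998). The margin was narrow, with 16.18 CPM in Prr14-KO replicate 5 and 16.03 CPM in Prr14-WT replicate 3. By library totals without TMM factors, these libraries change order and the groups overlap. Without Prr14-KO replicate 7 the log2 fold change was 0.28. The region 13.0 kb from the start held 14, 23 and 14 counts in Prr14-KO and 13, 6 and 12 in Prr14-WT, also without overlap (log2 fold change 0.80, SE 0.55, and 0.49 without Prr14-KO replicate 5). At the farthest, 31.0 kb from the start, the counts were 12, 24 and 9 in Prr14-KO and 10, 20 and 18 in Prr14-WT, with overlap (log2 fold change -0.01, SE 0.51). The only region inside the gene span, at chr15:77049299-77049487, also overlaps the gene Apol6. It held 19, 2 and 0 counts in Prr14-KO and 4, 9 and 4 in Prr14-WT, too few to be tested. The Mb sum held 134, 119 and 124 counts in Prr14-KO and 104, 98 and 98 in Prr14-WT. Its log2 fold change was 0.39 (95% interval from 0.01 to 0.77, edgeR unadjusted p = 0.0433, adjusted p = 1.00). Most of this sum came from regions outside the Mb gene.

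Myoz2 was assigned 1 region, 15.7 kb upstream at chr3:123050596-123050877. It held 8, 11 and 10 counts in Prr14-KO and 8, 21 and 4 in Prr14-WT, with the Prr14-KO values inside the range of the Prr14-WT values. The gene sum had a log2 fold change of -0.13 (95% interval from -1.50 to 1.25), so neither a halving nor a doubling was outside the interval.

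Because assigned regions are few, all regions within 100 kb of each gene start were also summed, whatever their symbol, and tested over 29711 genes. None of the 9 windows passed, against 0.074% of all windows, and none had an unadjusted p under 0.05, against 3.28%. The groups did not overlap for 2 of the 9, both higher in Prr14-KO, against 7.93% of all windows. For Myoz2, 8 regions summed to 111, 126 and 131 counts in Prr14-KO and 101, 88 and 112 in Prr14-WT. After scaling the groups were apart (log2 fold change 0.34, SE 0.21, edgeR unadjusted p = 0.113). This separation rests on the TMM factors: Prr14-KO replicate 4 held 111 counts and Prr14-WT replicate 8 held 112, from a smaller library total. For Mb, 6 regions summed to 160, 161 and 146 counts in Prr14-KO and 133, 137 and 128 in Prr14-WT (log2 fold change 0.28, SE 0.18, edgeR unadjusted p = 0.129). For Myh7, 11 regions summed to 170, 128 and 172 counts in Prr14-KO and 194, 152 and 207 in Prr14-WT, and the groups overlapped (log2 fold change -0.18, SE 0.17; -0.06 without Prr14-KO replicate 5, -0.11 without Prr14-WT replicate 8 and -0.29 without Prr14-WT replicate 4). Windows are centred on the RefSeq gene start, at chr15:77050668 for Mb. The authors' distances given above for the Mb regions outside the gene are from other starts, and do not show which regions a window holds. The values depended on the width of the window. Within 50 kb, the log2 fold change was -0.49 for Myh7 (edgeR unadjusted p = 0.0253), 0.45 for Mb (edgeR unadjusted p = 0.0376) and 0.37 for Myoz2 (edgeR unadjusted p = 0.298), each with an adjusted p of 0.999. Within 250 kb, it was -0.06 for Myh7, 0.02 for Mb and 0.05 for Myoz2. The windows were richest at Myl2 (20 regions, 99.7 CPM in Prr14-KO and 108 in Prr14-WT) and Casq2 (21 regions, 82.2 CPM in Prr14-KO and 77.5 in Prr14-WT), and poorest at Myh7b (1 region, 2.82 CPM in Prr14-KO and 4.17 in Prr14-WT). The Myl2 window stood at the 84.5th percentile of all genes and the Myh7b window at the 3.7th.

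**Figure D4:**
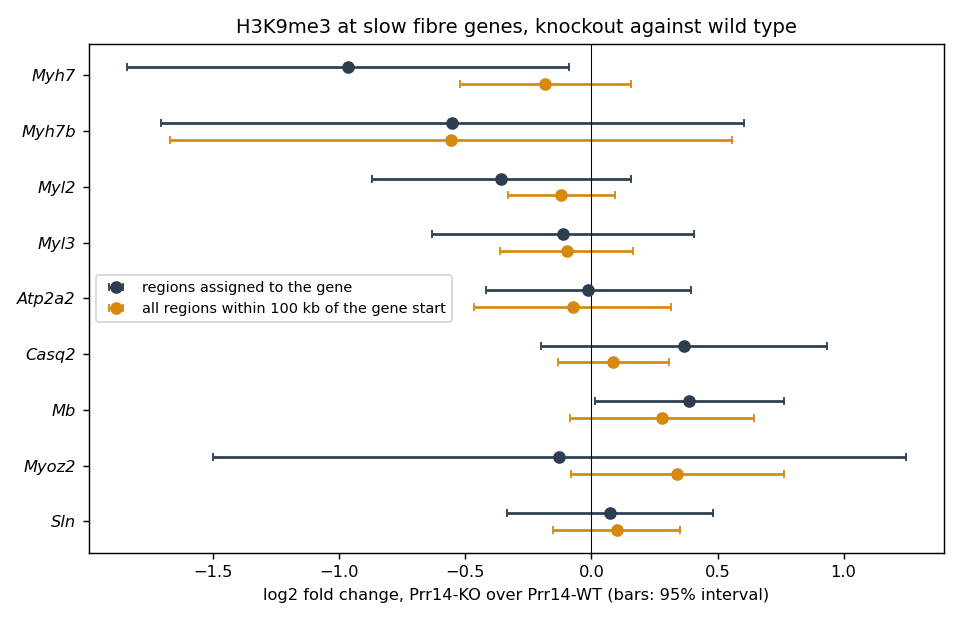
Log2 fold change, Prr14-KO over Prr14-WT, with its 95% interval for each of the 9 genes, from the regions assigned to the gene (dark) and from all regions within 100 kb of its start (orange). All intervals of the windows contain 0, and of the gene sums those of Myh7 and Mb do not.

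Other slow fibre genes were read from a list of 16, of which 10 had an assigned region and 8 were tested as gene sums. The 8 were Actn2, Csrp3, Ankrd2, Myot, Pln, Myom3, Ldb3 and Myh6, the fast cardiac myosin gene, so not all are particular to slow fibres. None passed the edgeR test, 3 were above 0 and 5 below, and the median log2 fold change was -0.05. The smallest p belonged to Ldb3, a Z-disc gene, with 81, 109 and 121 counts in Prr14-KO and 97, 72 and 68 in Prr14-WT. Its groups overlapped, at 23.3 ± 5.03 CPM in Prr14-KO and 16.9 ± 3.30 CPM in Prr14-WT (SD, n = 3 each; log2 fold change 0.46, edgeR unadjusted p = 0.0367, adjusted p = 1.00). Among those below 0 it belonged to Csrp3, the gene of muscle LIM protein, at 1.80 ± 0.619 CPM in Prr14-KO and 3.66 ± 1.67 CPM in Prr14-WT (SD, n = 3 each; log2 fold change -1.02, edgeR unadjusted p = 0.122). Pln, the gene of the SERCA inhibitor phospholamban, had the most regions (15), at 53.3 ± 5.15 CPM in Prr14-KO and 57.3 ± 1.92 CPM in Prr14-WT (SD, n = 3 each).

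Of 15 fast fibre counterparts, 9 had an assigned region and 5 were tested, with none past the edgeR test. All 5 were above 0, as were 7683 of all 15265 gene sums. Besides Myoz3, the values were 0.02 for Casq1 (SE 0.56), 0.04 for Pvalb (SE 0.27), 0.17 for Myl1 (SE 0.17) and 0.57 for Myh2 (SE 0.55). The median log2 fold change was 0.17 beside -0.11 for the slow fibre contractile genes, and no difference between the lists was tested. The smallest p belonged to Myoz3, a Z-disc gene of fast fibres, at 5.57 ± 5.46 CPM in Prr14-KO and 2.63 ± 2.35 CPM in Prr14-WT (SD, n = 3 each; log2 fold change 1.07, edgeR unadjusted p = 0.105, adjusted p = 1.00), and its groups overlapped. Atp2a1, the gene of the fast SERCA1 pump, had too few counts to be tested, with 17, 10 and 6 in Prr14-KO and 6, 3 and 2 in Prr14-WT and no overlap, and was picked out after its values were seen.

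**Figure D5:**
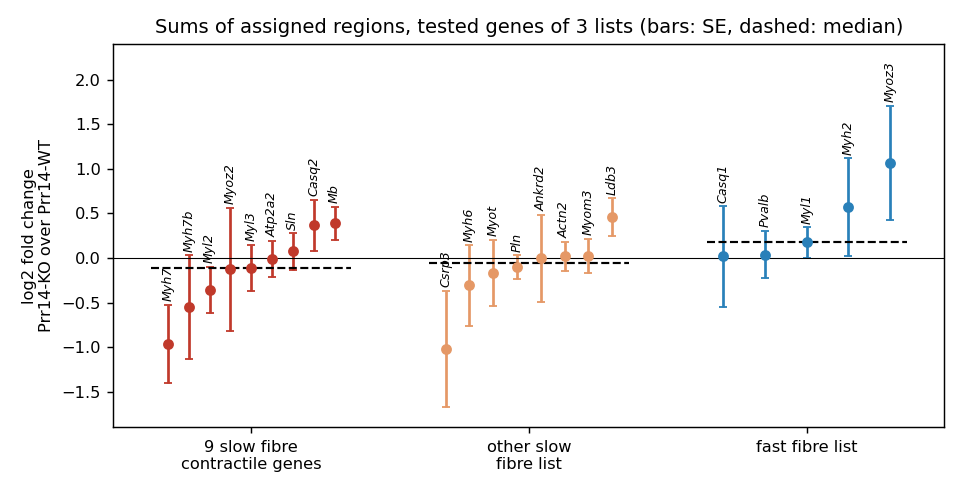
Log2 fold change of the gene sum, Prr14-KO over Prr14-WT, with its SE for each tested gene of the 3 lists, and the list's median as a dashed line. No gene passed an adjusted p of 0.05, and the medians are -0.11, -0.05 and 0.17 from left to right.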

How the data were processed

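Per the file headers, the deposited table gives for each region and library a raw count, and these counts are the values analysed. The authors' normalised signal, their log2 fold change, p-value and adjusted p-value, and the score of each region were deposited too and not used. The authors' annotation class, symbol and distance in bases to the start site were used as deposited. Named in the submitters' processing notes are the build GRCm38 and the tools BWA, Trimmomatic, bedtools, deepTools, MACS2 and DESeq2 1.6.3. Settings, and whether regions were called per library, are not given in the sources used here. Positions are those of the table, and a width is the end minus the start.

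The tests used edgeR 4.0.16 (R 4.3.3) on single regions, on sums per assigned symbol and on sums within 100 kb of a RefSeq gene start (GRCm38.p6) by region midpoint. Neighbouring windows share regions. Features were kept by filterByExpr (minimum count 10, minimum total 15), libraries scaled by TMM, and a robust quasi-likelihood fit compared Prr14-KO with Prr14-WT, with Benjamini-Hochberg adjustment over all features of a level and a threshold of 0.05. Intervals and standard errors derive from the F statistic. Precision rests on 3 libraries per group. The p-values weigh the group difference against a spread estimated with information shared across features, not against the spread of these libraries alone. The script was checked on simulated data. The labels name no batch and no spike-in, so a uniform change is scaled away.

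The named genes are all 9 members with every region, and of each comparison list those past the threshold or, with none, the gene with the smallest p in each direction. Pln was added for its number of regions after its values were seen. Members and lists were chosen with earlier results of these data known. Alternatives were RLE factors, library totals, 2 other count filters, DESeq2 1.42.0, limma-voom (limma 3.58.1), leaving out each library, genic regions only, RefSeq spans, and windows of 50 and 250 kb.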

Additional observations from a re-analysis of the deposited data

How the results depend on the processing

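No region, gene sum or window of the 9 genes passed an adjusted p of 0.05 under any alternative run, DESeq2 and limma-voom included, which gave 246, 115 and 125 values at the 3 levels, and the smallest adjusted p was 0.971, 0.556 and 0.545. DESeq2 gave no adjusted p for many single regions of the 9 genes, among them those of Myh7b and Myoz2. These could not pass in that run. No paired analysis was possible because the genotypes share only 1 replicate number. Over all features, leaving out 1 library gave 15 to 19 regions, 6 to 18 gene sums and 18 to 39 windows past the threshold, the highest gene sum and window counts both without Prr14-KO replicate 4 (6 and 22 with all libraries). The log2 fold change of the Myh7 sum ran from -1.08 to -0.37 (the last with RefSeq spans, an alternative chosen after seeing the data) and that of the Mb sum from 0.35 to 0.42. By the test of each run, the unadjusted p stayed under 0.05 in 9 of 13 alternatives for the Myh7 sum and in 5 of 12 for the Mb sum. For Mb it was above 0.05 whenever 1 library was left out. Values of genes that did not pass changed sign as follows, and the cause was not tested. Under limma-voom the Myoz2 region and sum were both at 0.171. With promoter and genic regions only, the sums of Myl3, Atp2a2 and Sln were at 0.001, 0.804 and -0.301, and with regions overlapping the RefSeq span the Atp2a2 sum was at 0.207. With windows of 250 kb, Myh7b was at 0.186, and at 50 kb the Myh7 and Mb windows had an unadjusted p under 0.05. Leaving out 1 library each moved the sums of Sln from -0.045 to 0.27, of Atp2a2 from -0.052 to 0.018 and of Myoz2 from -0.535 to 0.749. It moved single regions of Mb (31.0 kb from the start) from -0.552 to 0.236, Myoz2 from -0.502 to 0.771, Myl3 (14.7 kb) from -0.138 to 0.315, Casq2 (22.9 kb) from -0.128 to 0.708 and Sln (33.4 kb) from -0.557 to 0.016. Features that a stricter filter or the genic and span alternatives removed have no value there. Low counts and 3 libraries per group limit what could be detected, as the intervals of the sums show.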
